A study of Mus musculus with 6 samples.

Results

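The E2F factors and their partners were followed in MC3T3-E1 cells, a mouse line of bone-forming precursors from newborn C57BL/6 calvaria, before and after osteoblast induction. The set held 10 genes: the activators E2f1, E2f2 and E2f3, the repressors E2f4, E2f5, E2f6, E2f7 and E2f8, the pocket protein gene Rbl1 and the Myb factor gene Mybl2. They were chosen by name, as rows of the expression table annotated to exactly 1 gene, and all 10 were found, on 11 probe sets, among 19938 genes on 21789 probe sets. RNA of 3 undifferentiated and 3 differentiated samples was hybridised to 1 Affymetrix mouse array each. The undifferentiated cells grew in α-MEM made without ascorbic acid, with 10% serum, and received no treatment. The differentiated cells were taken at confluence and held for 14 days in DMEM with 10% serum, 0.1 µM dexamethasone, 0.2 mM ascorbic acid-2-phosphate, 10 mM β-glycerophosphate and 1 mM sodium pyruvate. The effects of medium, confluence, time in culture and the compounds cannot be told apart. What made the replicates independent, as the labels call them, is not given, so p-values measure the spread between these samples, which may be technical.

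E2F proteins bind DNA in front of genes needed to copy the genome, in most cases as pairs with a DP protein. In resting cells pocket proteins of the retinoblastoma family hold E2Fs in repressing complexes, and cyclin-dependent kinases release them when a cell commits to division. E2f1 to E2f3 then switch those genes on, E2f7 and E2f8 switch them off again late in S phase without a DP partner or a pocket protein, and B-Myb, the product of Mybl2, joins the MuvB complex to prepare the genes of mitosis.

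The values are log2 expression centred so that the median of each probe set over the 6 arrays was 0 to within 5e-07. A difference between arrays can be read from them, but not how strongly a gene was expressed. Centring also makes the nearest arrays of separated groups mirror images around 0. Array medians lay between -0.00499 and 0.00838. The labelled cell type could not be checked by level. Of its markers the bone matrix genes Ibsp (3.12 ± 0.09) and Dmp1 (3.44 ± 0.20) and the phosphatase gene Alpl (0.96 ± 0.08) were higher in differentiated cells, Col1a1 (-0.40 ± 0.07) and Sp7 (-0.40 ± 0.07) were lower, and Runx2 and Bglap were not analysed here. These are log2 fold changes, differentiated minus undifferentiated, with limma's moderated standard error, as are all changes below. Among markers of other cells, Cd68 (0.44 ± 0.10) of macrophages and Fabp4 (0.46 ± 0.06) of fat cells rose, while Ptprc (0.10 ± 0.06), Adgre1 (-0.03 ± 0.06), Adipoq (-0.11 ± 0.07) and Pparg (0.07 ± 0.07) did not pass. Their part in the results was not tested.

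The 4 members with the largest changes are shown with the DNA in front of their genes, beside E2f3, whose change was small. E2f3 has a pair of starts, and the one shown was picked because its window held the E2F motif given below. No match to any motif below was found for E2f6, which is not shown. The stretches end at the base before the RefSeq start (GRCm38.p6, 5′ to 3′ on the strand of the gene). E2f7 lies at chr10:110745189-110745438 on the plus strand, E2f8 at chr7:48881597-48881746 on the minus strand, Rbl1 at chr2:157204535-157204684 on the minus strand, Mybl2 at chr2:163054485-163054634 on the plus strand and E2f3 at chr13:29986064-29986213 on the minus strand. Capitals mark matches, on either strand, to the E2F motif TTTNNCGC with C or G for each N. They also mark shorter E2F letters, which are TTNNCGC with C or G for each N, and a second form, TCCCGCC. The CHR motif of genes of mitosis (TTTGAA or TTCGAA) and the CCAAT box are marked as well.
E2f7: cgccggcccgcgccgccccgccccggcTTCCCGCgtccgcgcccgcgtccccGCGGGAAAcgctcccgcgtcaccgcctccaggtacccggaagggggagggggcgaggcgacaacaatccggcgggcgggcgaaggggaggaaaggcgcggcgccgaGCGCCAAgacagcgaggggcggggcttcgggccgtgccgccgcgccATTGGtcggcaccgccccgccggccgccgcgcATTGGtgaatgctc
E2f8: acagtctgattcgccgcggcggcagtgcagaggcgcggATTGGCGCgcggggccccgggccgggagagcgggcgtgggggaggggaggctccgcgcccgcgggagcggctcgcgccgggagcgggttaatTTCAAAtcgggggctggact
Rbl1: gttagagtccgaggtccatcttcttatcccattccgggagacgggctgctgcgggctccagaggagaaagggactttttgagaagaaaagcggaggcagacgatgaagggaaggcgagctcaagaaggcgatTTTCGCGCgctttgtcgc
Mybl2: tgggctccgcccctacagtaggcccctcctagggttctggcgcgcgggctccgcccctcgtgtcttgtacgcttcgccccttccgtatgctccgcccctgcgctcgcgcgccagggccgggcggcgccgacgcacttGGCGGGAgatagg
E2f3: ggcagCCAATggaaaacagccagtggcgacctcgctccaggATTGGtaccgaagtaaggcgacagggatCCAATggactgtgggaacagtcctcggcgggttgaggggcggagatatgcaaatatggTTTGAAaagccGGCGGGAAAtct

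Windows from 250 bases before to 50 bases after the start were given for 8 members (10 windows, since E2f2 and E2f3 have a pair each), and E2f4 and E2f5 were not matched. The longer E2F motif was found in 4 of the 10 windows, each of a different gene, against 2.26% of the 32851 windows of all genes. It lay 198 bases before the start in E2f7, 18 before in Rbl1, 11 before in E2f3 and 40 after in E2f2. The shorter letters, chosen after the first search had been seen, were found in 7 of the 10 windows, which belong to 6 genes, against 17.3% of all windows. They added the match 111 bases before the start of E2f8, which overlaps a CCAAT on the other strand, and the match 13 bases before that of Mybl2. The CHR motif was in E2f8, E2f3 and E2f2 (19.2% of all windows) and CCAAT in E2f7, E2f8, E2f3 and E2f2 (37.4%). The windows of E2f1 and E2f6 held none of these motifs. That of E2f1 appears to start inside a coding exon of a longer transcript, so it may miss the promoter of that transcript. A match is a run of letters and no evidence of binding, and matches were found both in genes that fell more than 2-fold and in E2f2 and E2f3, whose changes did not pass the test.

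The comparison asked how these genes differ between undifferentiated and differentiated cells. The atypical repressors E2f7 and E2f8, Rbl1 and Mybl2 fell by more than 2-fold. The other 6 genes differed by 1.19-fold or less: E2f1, E2f4 and E2f5 were slightly lower, E2f6 was slightly higher, and E2f2 and E2f3 did not pass. At a limma p of 0.05 after Benjamini-Hochberg adjustment across the whole table, 7 of 10 members were lower, 1 was higher and 2 did not pass. Of all genes, 35.5% passed, 19.1% lower and 16.4% higher. At least 2-fold lower were 4 of 10 members, against 2.28% of all genes. The arrays of the groups did not overlap for 9 of 10 members, against 46.2% of all genes, a share that is itself high. E2f3 is counted among the 9 by its average only, since its groups overlapped on each of its probe sets. Leaving out undifferentiated replicate 2 or differentiated replicate 1 left 4 members lower, and these were E2f7, E2f8, Rbl1 and Mybl2.

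**Figure D1:**
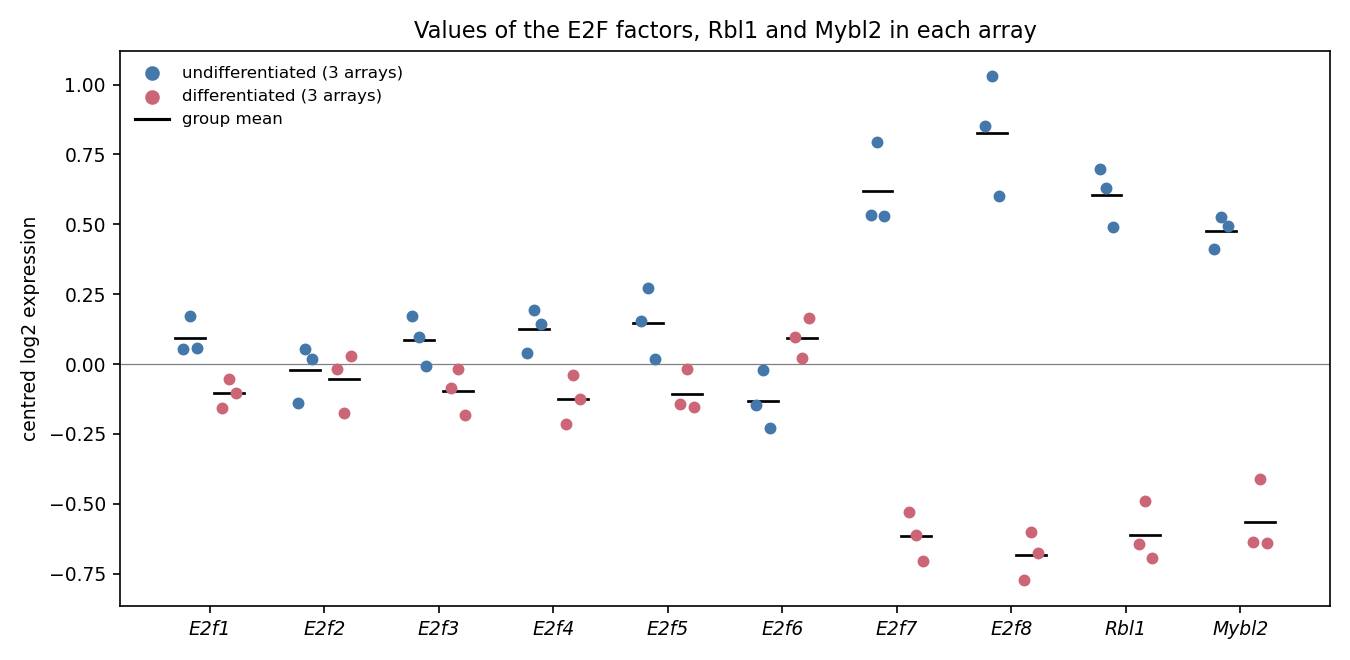
Centred log2 expression (vertical axis) of the 10 genes (horizontal axis) in each of the 3 undifferentiated arrays (blue) and 3 differentiated arrays (red), with the group mean as a black bar. The groups lie more than 2-fold apart in E2f7, E2f8, Rbl1 and Mybl2, close together in the other 6 genes, and overlap in E2f2.

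E2f8 fell most. In the order of the replicate numbers, its centred values were 0.85, 1.03 and 0.60 without induction and -0.77, -0.60 and -0.68 after it, and the same order is used for every gene. The groups were far apart, with undifferentiated replicate 3 lowest and replicate 2 highest within their group. The change was -1.51 ± 0.10 (2.85-fold lower, 95% interval -1.75 to -1.28, n = 3 arrays per group, limma adjusted p = 4.74e-06), the 210th largest fall of 19938 genes. E2f7, its closest relative, read 0.53, 0.79 and 0.53 in undifferentiated and -0.53, -0.61 and -0.70 in differentiated arrays. It was 2.35-fold lower (-1.23 ± 0.08, interval -1.42 to -1.04, limma adjusted p = 4.81e-06). The intervals of the pair overlap, and whether one fell more than the other was not tested.

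Rbl1 encodes p107, the pocket protein that pairs mainly with E2f4 and E2f5 and whose gene is itself an E2F target. Its values were 0.70, 0.63 and 0.49 in undifferentiated and -0.64, -0.49 and -0.70 in differentiated arrays. All 3 undifferentiated arrays stood above all 3 differentiated ones, and Rbl1 was 2.32-fold lower (-1.22 ± 0.08, interval -1.39 to -1.04, limma adjusted p = 2.76e-06). Mybl2 read 0.41, 0.53 and 0.49 in undifferentiated and -0.64, -0.41 and -0.64 in differentiated arrays. This gene was 2.06-fold lower (-1.04 ± 0.07, interval -1.21 to -0.87, limma adjusted p = 6.43e-06). Differentiated replicate 2 was the highest array of its group in both genes, but well under every undifferentiated array. Over 14 other settings E2f8 ranged from -1.62 to -1.30, E2f7 from -1.28 to -1.14, Rbl1 from -1.28 to -1.17 and Mybl2 from -1.13 to -1.002, and each passed in every one.

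The array signals of the activators moved little, and whether these genes lay above background is unknown. E2f1, which can drive both S phase and cell death, read 0.05, 0.17 and 0.06 in undifferentiated and -0.16, -0.05 and -0.10 in differentiated arrays. The groups did not overlap, and E2f1 was 1.15-fold lower (-0.20 ± 0.06, interval -0.33 to -0.07, limma adjusted p = 0.0266). That call was lost without undifferentiated replicate 2 (adjusted p = 0.0931), differentiated replicate 1 (0.0945) or differentiated replicate 3 (0.0717), with adjusted p from 0.0203 to 0.0945 over all settings.

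E2f2 read -0.14, 0.05 and 0.02 in undifferentiated and -0.02, -0.17 and 0.03 in differentiated arrays, so the groups overlapped. Its change was -0.03 ± 0.07 (interval -0.20 to 0.14, limma adjusted p = 0.794). The interval bounds a fall of the E2f2 signal well short of those of E2f7 and E2f8. For a gene near background it would not bound a fall of the RNA, and the level of E2f2 is unknown. The sign of E2f2 turned without undifferentiated replicate 2 (0.00) or differentiated replicate 2 (0.03). E2f3 read 0.17, 0.10 and -0.01 in undifferentiated and -0.08, -0.02 and -0.18 in differentiated arrays. Its groups met almost at 0, and the change of -0.18 ± 0.07 (interval -0.34 to -0.03) did not pass (limma adjusted p = 0.0668). It passed in 3 of 14 other settings, among them array weights (adjusted p = 0.0439) and the fit without undifferentiated replicate 3 (adjusted p = 0.0302), and the range over all settings was 0.0302 to 0.218. E2f3 was averaged from the probe sets 10408475 (-0.12 ± 0.06) and 10408477 (-0.25 ± 0.10), and neither passed when tested singly (adjusted p = 0.198 and 0.102). On each probe set alone the groups overlapped.

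E2f4 and E2f5, the repressors that work with p107 and p130 in resting cells, were slightly lower. E2f4 read 0.04, 0.19 and 0.14 in undifferentiated and -0.21, -0.04 and -0.13 in differentiated arrays. It was 1.19-fold lower (-0.25 ± 0.07, interval -0.40 to -0.10, limma adjusted p = 0.0163), but did not pass without undifferentiated replicate 2 (0.0622) or differentiated replicate 1 (0.0643), within a range of 0.00951 to 0.0643 over all settings. E2f5 read 0.15, 0.27 and 0.02 in undifferentiated and -0.14, -0.02 and -0.15 in differentiated arrays, also 1.19-fold lower (-0.25 ± 0.08, limma adjusted p = 0.0271). Its call was lost without undifferentiated replicate 1 (0.0690) or 2 (0.0925) and without differentiated replicate 1 (0.0880) or 3 (0.0935), within a range of 0.00759 to 0.0935. Undifferentiated replicate 3 and differentiated replicate 2 of E2f5 differed by very little.

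E2f6 was the one member that rose. This repressor lacks the pocket protein binding region and works in a Polycomb complex that keeps germline genes silent. Its values were -0.15, -0.02 and -0.23 in undifferentiated and 0.10, 0.02 and 0.17 in differentiated arrays. It was 1.17-fold higher (0.23 ± 0.07, interval 0.07 to 0.38, limma adjusted p = 0.0321). E2f6 passed in 8 of 14 other settings. Among the 6 that ended its call were cyclic loess (adjusted p = 0.0559) and the fits without undifferentiated replicate 1 (0.0830) or 3 (0.0856) and differentiated replicate 1 (0.0829) or 3 (0.116). Over all settings E2f6 kept its sign, from 0.18 to 0.28, with adjusted p from 0.0168 to 0.116.

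**Figure D2:**
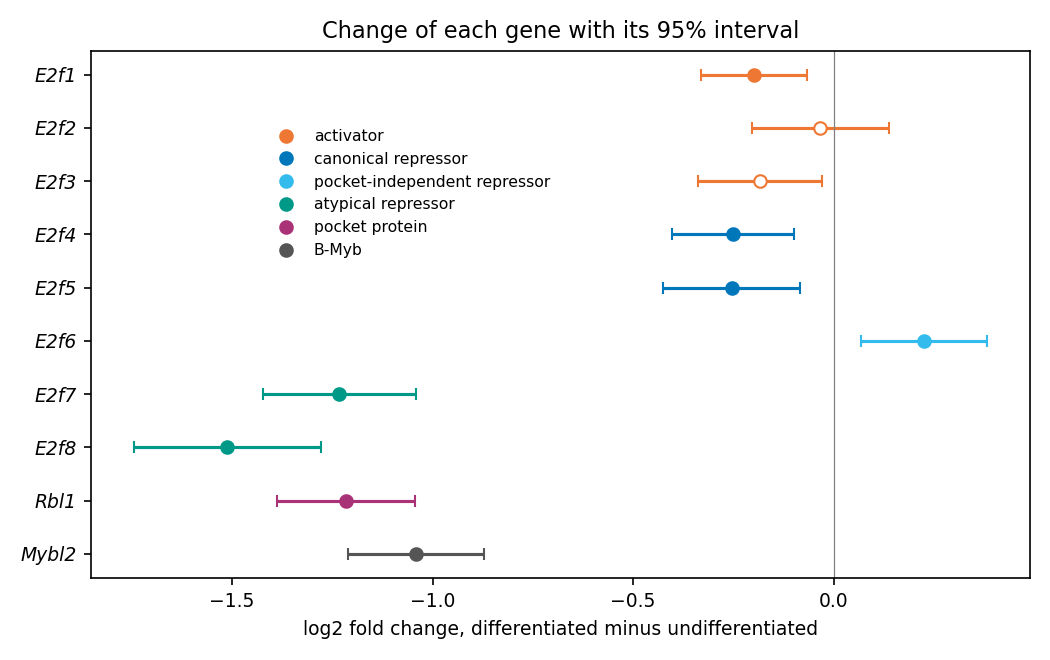
Log2 fold change, differentiated minus undifferentiated (horizontal axis), of each gene (vertical axis) with its 95% interval, coloured by role, with filled points at a limma adjusted p under 0.05 and 3 arrays per group. E2f7, E2f8, Rbl1 and Mybl2 lie at -1.04 or lower, and the other 6 genes between -0.25 and 0.23.

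Activators were then set against repressors. The mean of E2f1 to E2f3 minus the mean of E2f4 to E2f8 was -0.26, -0.35 and -0.19 in undifferentiated and 0.23, 0.17 and 0.21 in differentiated arrays, a shift of 0.47 toward the activators. All 3 differentiated arrays lay above all 3 undifferentiated ones. The shift came from E2f7 and E2f8: against these 2 alone it was 1.23, and against E2f4, E2f5 and E2f6 it was -0.05, with overlapping groups. As a split between activators and repressors, the difference therefore depended on counting the atypical factors as repressors. No test is given for these scores, which average over members chosen by name.

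Each activator was also compared with each repressor within arrays, which made 15 pairs. With 3 arrays per group the smallest two-sided exact permutation p is 0.1, or 0.167 after adjustment over the 15, so no pair could pass. All 9 pairs with E2f6, E2f7 or E2f8 reached that smallest p, their groups not overlapping. These pairs share their genes and are not separate results. Of single genes, 46.2% did not overlap, and the share among pairs of other genes was not computed. Against E2f7 the activators' changes were 1.03 to 1.20 higher on the log2 scale, against E2f8 1.31 to 1.48 higher, and against E2f6 0.26 to 0.42 lower (E2f2 -0.26, E2f3 -0.41, E2f1 -0.42). In the 6 pairs with E2f4 or E2f5 the groups overlapped. There the activators' changes were 0.05 to 0.22 higher and exact permutation p-values ran from 0.2 to 0.6, which does not show that the genes behaved alike.

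Replicates of a group differed as well. Undifferentiated replicate 2 was the highest of all 6 arrays in 7 of 10 members, against 16.7% of all genes and 47% of the genes that fell. Undifferentiated replicate 3 was the lowest of its group in 6 members, against 33.2% of all genes and 60.4% of those that fell. Differentiated replicate 2 was the highest of its group in 7 members, against 30.3% and 44.1%. Most members fell, so the share among genes that fell is the nearer background. Over all genes the residual SD around the group mean was 0.0745 to 0.0947, largest in undifferentiated replicate 3.

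By Euclidean distance over the 6 arrays, the genes with values most like those of E2f8 were Sema3c (distance 0.109, change -1.54 ± 0.08), Exosc8 (0.137, change -1.53 ± 0.11) and Sinhcaf (0.141, change -1.53 ± 0.10). Those most like E2f7 were the serine synthesis gene Psph (distance 0.125, change -1.13 ± 0.08), the polyamine synthesis gene Odc1 (0.131, change -1.21 ± 0.08) and Chaf1a, of chromatin assembly at the fork (0.135, change -1.22 ± 0.07). Nearest to E2f1 were Gpatch8 (0.0584), Wdr82 (0.0613) and Nxf3 (0.0680), with changes from -0.22 to -0.20. Nearest to E2f4 were Aldh16a1 (0.0750), Vkorc1l1 (0.0832) and Tpm3 (0.0891), with changes from -0.25 to -0.22.

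The other pocket proteins did not follow Rbl1. Rbl2, which encodes p130, the pocket protein typical of resting cells, read -0.28, -0.56 and -0.34 in undifferentiated and 0.29, 0.34 and 0.28 in differentiated arrays. It was 1.62-fold higher (0.69 ± 0.08, limma adjusted p = 9.51e-05), so Rbl1 and Rbl2 changed in opposite directions. Rb1, the retinoblastoma gene, had a change of 0.00 ± 0.06 (interval -0.13 to 0.13, limma adjusted p = 0.985). Its sign turned in 5 of 14 other settings, among them median and cyclic loess scaling. Of the DP partners, Tfdp1 fell 1.53-fold (-0.62 ± 0.07, adjusted p = 1.25e-04), on both of its probe sets (-0.57 and -0.66). Tfdp2 was at -0.19 ± 0.07 (adjusted p = 0.0635) and passed without undifferentiated replicate 3 (0.0311) or differentiated replicate 1 (0.0452), and with array weights (0.0411), within a range of 0.0311 to 0.199.

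Of 9 genes of the MuvB complex and the Myb and Foxm1 factors that bind it, 6 fell, 0 rose and 3 did not pass. Mybl2 is among the 6 and was already counted as a member. The 9 had a median of -0.88, against 0.02 over all genes, of which 19.1% fell and 16.4% rose. Foxm1, the forkhead factor of mitotic genes, fell 3.37-fold (-1.75 ± 0.08). Of the MuvB subunits, Lin9 (-1.53 ± 0.09), Lin54 (-0.88 ± 0.11) and Rbbp4 (-0.33 ± 0.06) fell, while Lin37 (0.26 ± 0.12) and Lin52 (0.17 ± 0.08) did not pass. Without differentiated replicate 1, or after cyclic loess, 1 gene of the 9 was higher, Lin52 (adjusted p = 0.0281 and 0.0425, within a range of 0.0281 to 0.315). In the Myb family, Mybl1 fell (-1.01 ± 0.08) beside Mybl2, and Myb was at 0.05 ± 0.05.

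Cyclins split by phase. Of 15 measured cyclins, kinases and inhibitors that act on the pocket proteins, 6 fell, 5 rose and 4 did not pass (median 0.01). Of all genes, 19.1% fell and 16.4% rose (median 0.02). Cdkn1a was not analysed here. The 3 D cyclins, which start pocket protein phosphorylation in G1, rose: Ccnd3 2.52-fold (1.33 ± 0.06, from -0.72 to -0.59 in undifferentiated to 0.59 to 0.75 in differentiated arrays), Ccnd2 (0.78 ± 0.06) and Ccnd1 (0.49 ± 0.05). The cyclins that follow fell: Ccna2 6.99-fold (-2.81 ± 0.08), Ccne2 3.45-fold (-1.78 ± 0.11) and Ccne1 (-0.80 ± 0.06), as did their kinase gene Cdk2 (-0.85 ± 0.08). Of the kinases paired with D cyclins, Cdk4 fell slightly (-0.19 ± 0.05), losing its call without undifferentiated replicate 2 (0.0651) or differentiated replicate 2 (0.0752; 0.0133 at the lowest setting), and Cdk6 was at 0.01 ± 0.09. Among inhibitors Cdkn1b (-0.18 ± 0.07), Cdkn2a (0.10 ± 0.06) and Cdkn2b (0.09 ± 0.05) did not pass, though Cdkn1b did in 2 of 14 other settings. Cdkn1b was averaged from 2 probe sets, and the lowest-numbered alone was at -0.04 (limma adjusted p = 0.655). Cdkn2d fell (-0.89 ± 0.09) and Cdkn2c rose (0.46 ± 0.06). Cdkn1c rose too (0.34 ± 0.10, adjusted p = 0.0306), but not after cyclic loess (0.0534) or without differentiated replicate 1 (0.0847) or 3 (0.0978), within a range of 0.0174 to 0.0978.

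**Figure D3:**
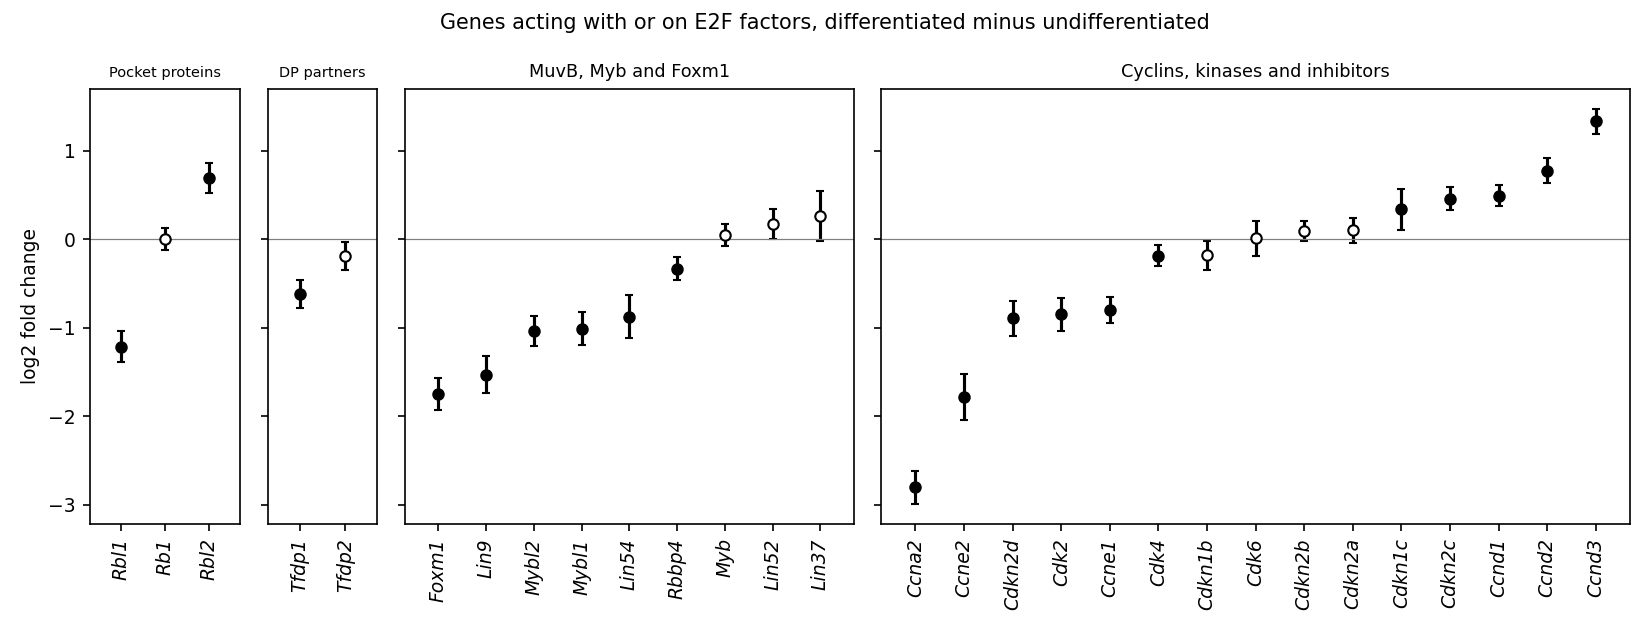
Log2 fold change, differentiated minus undifferentiated (vertical axis), with its 95% interval for pocket proteins, DP partners, MuvB with Myb and Foxm1 genes, and cyclins, kinases and inhibitors (horizontal axes), with filled points at a limma adjusted p under 0.05 and 3 arrays per group. Rbl1 and Rbl2 lie on opposite sides of 0 (-1.22 and 0.69), and so do Ccna2 (-2.81) and Ccnd3 (1.33).

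Genes of DNA replication and mitosis that E2F factors and B-Myb are known to control fell together, while the signals of E2f1 to E2f3 differed little. Ccne1 and Ccne2 are counted here as well as among the cyclins. Of 37 measured G1/S target genes, 36 fell, 0 rose and 1 did not pass, with 29 at least 2-fold lower. Their median was -1.51, against 0.02 over all genes, of which 19.1% fell and 2.28% fell at least 2-fold. The replication helicase subunits Mcm5 (-2.17 ± 0.09) and Mcm3 (-2.01 ± 0.11) and the nucleotide enzyme gene Rrm2 (-2.15 ± 0.12) fell most. The licensing factor gene Cdt1 was at 0.21 ± 0.09 and was higher without undifferentiated replicate 2 (0.30, adjusted p = 0.0322, within a range of 0.0322 to 0.516). All 25 measured G2/M target genes of MuvB, B-Myb and Foxm1 fell at least 2-fold (median -2.49), led by Cenpe (-2.95 ± 0.09), Mki67 (-2.94 ± 0.08) and Plk1 (-2.90 ± 0.07). In bulk RNA, fewer cells in S phase or mitosis and less RNA per such cell cannot be told apart.

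For E2f6, 13 genes of its Polycomb complex were measured, of which 7 fell, 1 rose and 5 did not pass (median -0.35). Of all genes, 19.1% fell and 16.4% rose (median 0.02), which is the background for each list in this paragraph. Cbx3 (-0.91 ± 0.09), Hdac2 (-0.68 ± 0.08) and Tfdp1 fell most, and several of these also serve other complexes. Tfdp1 is counted here as well as among the DP partners. Max, a partner of the complex's DNA-binding subunit, rose with E2f6 (0.29 ± 0.09, adjusted p = 0.0332), but not after cyclic loess (0.150) or without undifferentiated replicate 3 (0.0555), differentiated replicate 1 (0.0903) or 3 (0.108), within a range of 0.0182 to 0.150. Of 16 germline genes of the kind that E2f6 keeps silent, 0 passed in limma, 1 had an unadjusted p under 0.05, and changes ran from -0.14 to 0.06 (median 0.00). Whether any was expressed cannot be read from centred values. Of 7 apoptosis genes linked to E2f1, Apaf1 (-0.65 ± 0.08) and Casp8 (-0.27 ± 0.07) fell, Bid (0.31 ± 0.07) and Bcl2l11 (0.26 ± 0.07) rose and 3 did not pass (median 0.12). The Casp8 call was lost without undifferentiated replicate 2 (0.0721), differentiated replicate 1 (0.0638) or 3 (0.0814), within a range of 0.00706 to 0.0814. The call of Bcl2l11 was lost without differentiated replicate 1 (0.0519) and after cyclic loess (0.0588), within a range of 0.00825 to 0.0588.

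**Figure D4:**
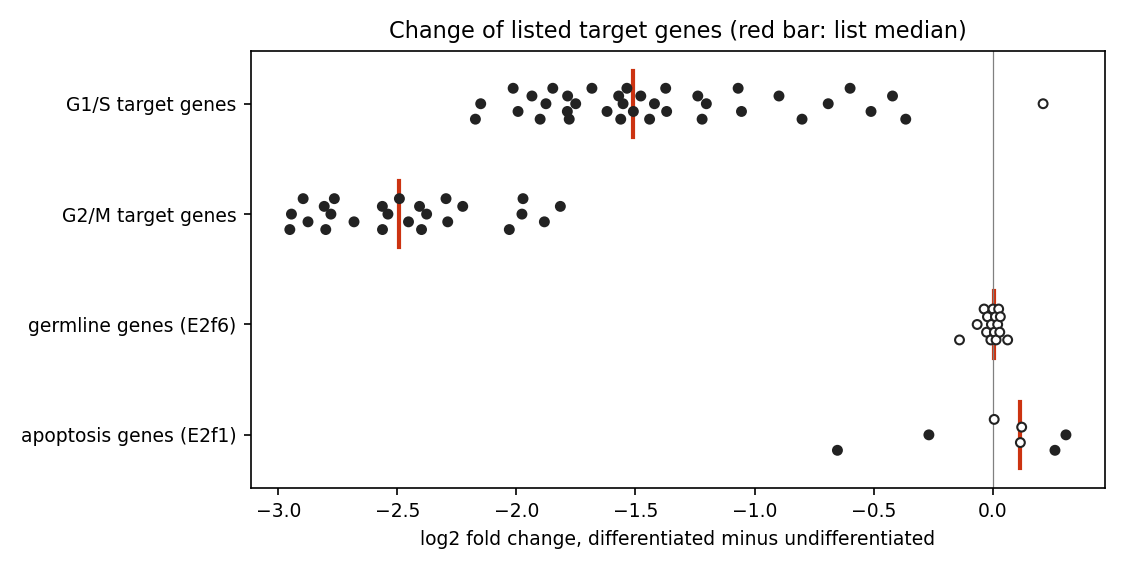
Log2 fold change, differentiated minus undifferentiated (horizontal axis), of genes in 4 lists of E2F-linked target genes (vertical axis), 1 point per gene, filled at a limma adjusted p under 0.05, with the list median as a red bar. G1/S and G2/M target genes centre on -1.51 and -2.49, germline genes on 0.00, and apoptosis genes lie on both sides of 0.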

How the data were processed

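RNA of 3 undifferentiated and 3 differentiated samples was measured on 1-colour arrays, and groups and replicate numbers were taken from the sample titles. The authors deposited log2 values that come from RMA, per the submitters' processing notes, which name no version. RMA corrects background, gives all arrays 1 distribution of values and sums probes up to probe sets. That the scale is log2 follows from the method's name, and the centring on each probe set's median was seen in the values only. Signal over background is therefore unknown and no filter on dim genes could be made. The number of arrays limits the precision.

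Of 28856 probe sets, 21789 named 1 gene, 1621 several and 5446 none in the platform annotation. Symbols were updated by gene ID (21698 matched) through a RefSeq table of GRCm38.p6. For the 999 of 19938 genes that had several, the mean was taken. Groups were compared with limma 3.58.1 in R 4.3.3 (lmFit and eBayes, two-sided, no block), and p-values were adjusted over the whole table by Benjamini-Hochberg. Promoter windows came from RefSeq and motifs were counted with Python 3.11.15.

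The members, gene lists and tests were chosen with earlier results of these data known. All members are named. Of each list the 3 largest passing changes each way are named, with passing genes that oppose the list's median, and for E2f1, E2f4, E2f7 and E2f8 the 3 nearest genes, passing over predicted loci. Other list genes (Rb1, Tfdp2, Lin37, Lin52, Lin54, Rbbp4, Mybl1, Myb, Cdk6, Cdkn1b, Cdkn2a, Cdkn2b, Cdkn2c, Cdkn1c, Cdt1) were named after their values were seen. Other settings tried were a block for the replicate number, 3 scalings, every probe set, the lowest-numbered probe set, array weights, robust eBayes and each array left out. A planned comparison of protein sequences was not run.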

Additional observations from a re-analysis of the deposited data

How the results depend on the processing

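E2f7, E2f8, Rbl1, Mybl2, Tfdp1, Rbl2 and Ccnd3 kept their direction and their call under all 14 alternatives. Whether the same numbers in the 2 groups pair the arrays was not settled. Deviations from the group mean correlated at -0.00133, 0.0692 and 0.162 for numbers 1 to 3, and no such values were computed for unlike numbers. With the replicate number as a block, 0 members were higher, since E2f6 (0.23, adjusted p = 0.0584) no longer passed, E2f3 did (-0.18, adjusted p = 0.0460), and 7162 genes passed in place of 7070. After cyclic loess 0 members were higher (E2f6 at 0.20), 1 gene of MuvB and its factors, 0 of the E2f6 complex and 1 of the apoptosis list were higher, Rb1 was at -0.00546, and the shift of activators over repressors was 0.39. With median scaling Rb1 was at -0.00103. With array weights E2f3 was at -0.20 and passed, and 2 DP partners were lower. With E2f4, E2f5 and E2f6 alone as repressors the shift was -0.0452. The causes were not tested.

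With each array left out in turn, lower members numbered 4 to 8 and higher members 0 to 1. E2f1 ran from -0.22 to -0.16, E2f2 from -0.0912 to 0.0265, E2f3 from -0.23 to -0.14, E2f4 from -0.29 to -0.21, E2f5 from -0.32 to -0.19, E2f6 from 0.18 to 0.28 and Rb1 from -0.0275 to 0.0311. DP partners lower numbered 1 to 2, genes of MuvB and its factors higher 0 to 1, genes of the E2f6 complex higher 0 to 1, apoptosis genes lower 1 to 2 and higher 1 to 3, and G1/S targets higher 0 to 1. With 3 arrays per group the standard errors of E2f1 to E2f6 were 0.06 to 0.08, against changes between -0.25 and 0.23.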
